A study of Mus musculus with 12 samples.

Results

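Tight junctions seal neighbouring cells of a sheet to each other and set how freely ions and solutes pass between them. Claudins form their strands, occludin and the junctional adhesion molecules sit beside the claudins in the membrane, and ZO-1 and cingulin join the strands to the actin cytoskeleton from inside the cell. In adipose tissue such junctions are best known from the endothelium of its vessels, and several of the same proteins are also made by cells that form no sealed sheet. Measured here were 9 genes of this kind in mouse brown adipose tissue, among the 22180 genes with a probe set of 1 symbol. They were the claudin genes Cldn1, Cldn5, Cldn12 and Cldn15, the occludin gene Ocln, Tjp1 (which encodes ZO-1), F11r (JAM-A), Jam3 (JAM-C) and Cgn (cingulin). They were picked by gene symbol with earlier results of these data known, so their p-values and counts are given as descriptions. Each had exactly 1 probe set, so the choice of the brightest probe set per gene decided nothing. Cldn1 gave the set its name with its cold response already known, so that response is described here without a p-value and supports nothing.

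RNA was measured on 12 arrays in 4 groups of 3. The groups were Zbtb7b knockout (KO) mice after 4 h at 4 °C (cold), wild-type (WT) mice after the same cold exposure, KO mice kept at 22 °C (room temperature) and WT mice kept at 22 °C. All mice were male, 10 weeks old and fed a standard chow, and how the knockout allele was made, and in which cells it acts, is not given in the sources used here. Titles number biological replicates, but a further field speaks of pools. How many animals an array stands for is therefore unknown, and p-values reflect only the scatter among these samples.

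Median log2 signals per array were 2.63 to 2.83, and precision is limited by having 3 arrays a group. Zbtb7b itself had 2.96 to 3.62 in KO tissue, against 4.26 to 4.76 in WT tissue. One label field names liver. Ucp1, the uncoupling protein gene that marks brown adipocytes, had 11.55 to 12.95 on every array, and Alb, the albumin gene of hepatocytes, had 1.20 to 2.75. Not all of the 12 hepatocyte genes listed were this low. Cyp2e1, the 1 that averaged 5 or more, had group means of 10.93 to 11.36. Group means of Hpx were 4.52 in KO and 5.71 in WT in the cold, and 2.73 in KO and 2.88 in WT at room temperature. A list of 21 skeletal muscle genes, a neighbouring tissue, had array means between 3.0 and 8.35 that differed within every group. The neutrophil list had a mean of 4.09 on KO cold replicate 3, against 1.77 to 2.44 on the other arrays.

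Of the 9 genes, 8 had an entry in the RefSeq table of start sites (mouse assembly GRCm38.p6). The 250 bases before the start site are shown for Cldn1, the gene with the large cold response, and for Cldn15 and Tjp1, which passed the test in opposite directions in the cold in WT. The windows are chr16:26371840-26372089 (minus strand) for Cldn1, chr5:136967619-136967868 (plus strand) for Cldn15 and chr7:65371245-65371494 (minus strand) for Tjp1. They are written 5′ to 3′ on the strand of the gene, and capitals mark GC boxes (GGGCGG) and AP-1 sites (TGANTCA) on either strand.
Cldn1: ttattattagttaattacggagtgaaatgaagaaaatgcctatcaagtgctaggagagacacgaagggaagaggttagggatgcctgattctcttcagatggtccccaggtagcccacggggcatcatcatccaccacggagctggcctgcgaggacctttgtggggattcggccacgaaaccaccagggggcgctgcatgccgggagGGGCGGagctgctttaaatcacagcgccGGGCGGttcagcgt
Cldn15: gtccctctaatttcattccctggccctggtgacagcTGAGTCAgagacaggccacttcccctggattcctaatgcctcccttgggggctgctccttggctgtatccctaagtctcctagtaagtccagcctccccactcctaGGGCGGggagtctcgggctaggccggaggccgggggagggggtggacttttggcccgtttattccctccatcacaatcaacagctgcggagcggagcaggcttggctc
Tjp1: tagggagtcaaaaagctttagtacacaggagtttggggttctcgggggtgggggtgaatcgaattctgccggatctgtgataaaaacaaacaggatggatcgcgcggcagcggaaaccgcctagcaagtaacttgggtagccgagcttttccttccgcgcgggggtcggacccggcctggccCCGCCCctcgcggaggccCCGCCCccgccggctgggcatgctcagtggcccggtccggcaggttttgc
On both strands 10 motifs were searched. Beside the GC box and the AP-1 site these were the CRE (TGACGTCA), the CRE half-site (TGACG, which the CRE also holds), the E-box (CACGTG), the CCAAT box (CCAAT), the TATA box (TATAAA), the heat shock element unit pair (GAANNTTC), the D-box (TTATGTAA) and the ROR half-site (AGGTCA). The Cldn1 window held 2 GC boxes and no match to the other motifs, the Tjp1 window also held 2 GC boxes, and the Cldn15 window held 1 GC box and 1 AP-1 site. Of the 32851 windows in the table, 32.7% held a GC box and 6.75% an AP-1 site. Shares of the other motifs ran from 0.819% for the D-box to 33.8% for the CCAAT box. Cldn5, F11r, Cgn and Ocln passed in no comparison, and GC boxes also stood in their windows. There was 1 in that of Cldn5, 1 in that of F11r, 6 in that of Cgn and 1 in each of the 2 windows of Ocln. The F11r window also held 1 AP-1 site.

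The main comparison asked how acute cold changed these genes in each genotype. Over both genotypes Cldn1 was 29.9-fold higher in the cold and Cldn15 rose 1.51-fold (limma adjusted p = 0.00650), while the scaffold gene Tjp1 fell in both genotypes. Cldn1, a sealing claudin best known from epidermis and other epithelia, was far higher on every cold array than on every room-temperature array. Its log2 signal was 10.95, 10.42 and 10.38 on the KO cold arrays and 11.03, 10.90 and 10.89 on the WT cold arrays. Room-temperature values were 5.50, 5.05 and 5.99 in KO mice and 7.02, 6.05 and 5.55 in WT mice. The lowest cold array thus lay more than 3 log2 units above the highest room-temperature array, and arrays of the same group lay further apart at room temperature, with an SD of 0.32 in KO and 0.08 in WT in the cold and of 0.47 in KO and 0.75 in WT at room temperature. The difference was 5.07 ± 0.33 in KO (SE, n = 3 per group), a 33.6-fold higher signal, and 4.73 ± 0.33 in WT, a 26.5-fold higher signal. In whole tissue, more cells of a type and more RNA per cell cannot be told apart.

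Markers of epithelium, where Cldn1 is best known, were mostly under the array medians. The summed linear signal of 10 epithelial genes was 43.5 to 48.9 on the KO cold arrays, 39.0 to 44.5 on the WT cold arrays, 41.8 to 48.7 on the KO room-temperature arrays and 43.2 to 44.5 on the WT room-temperature arrays. In the cold comparisons 0 of the 10 passed. Group means of Epcam, an adhesion molecule of epithelial cells, lay between 1.72 and 1.98, and those of the keratin gene Krt14 between 1.25 and 1.51. Those of the keratin gene Krt8 were higher, between 3.36 and 3.87. Of 7 genes of mesothelium, the sheet that covers inner organs, 0 passed, with list means between 2.29 and 2.61. The part of epithelial or mesothelial cells in the Cldn1 values was not tested.

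The cold differences of the other claudins were far smaller. Cldn15, a claudin that forms cation pores in the gut, had a log2 signal of 6.62, 7.13 and 6.62 on the KO cold arrays and 7.00, 7.14 and 6.90 on the WT cold arrays. Without cold the values were 6.40, 6.07 and 6.77 in KO mice and 5.98, 6.40 and 6.23 in WT mice. The WT groups did not overlap, while KO room-temperature replicate 3 lay above 2 of the KO cold arrays. In WT Cldn15 rose by 0.81 ± 0.20 (SE, n = 3 per group, limma adjusted p = 0.0133), which was 1.76-fold. Without WT room-temperature replicate 1 the adjusted p was 0.0565 and without WT cold replicate 2 it was 0.0547. In KO the difference was 0.38 ± 0.20 (limma adjusted p = 0.232), with a 95% confidence interval of -0.05 to 0.81.

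Cldn12, an unusual claudin without the usual tail that binds ZO-1, had a log2 signal of 6.06, 6.30 and 5.99 on the KO cold arrays and 6.23, 5.96 and 6.18 on the WT cold arrays. At 22 °C the signal was 5.84, 5.77 and 5.90 in KO mice and 5.91, 5.90 and 5.84 in WT mice. The cold arrays lay above the room-temperature arrays in both genotypes, by little. The difference was 0.28 ± 0.12 in KO (limma adjusted p = 0.145) and 0.24 ± 0.12 in WT (limma adjusted p = 0.225), and neither passed. Over both genotypes it was 0.26 ± 0.09 (limma adjusted p = 0.0420), a call that was lost in 9 of 12 fits that each left out 1 array (up to 0.105). The call was also lost with each array centred on its median (0.18, adjusted p = 0.166) and with a further normalisation between arrays (cyclic loess, 0.0501). With a trended and robust estimate of the spread the adjusted p was 0.0654. It passed under 9 of the 23 other settings run for this comparison.

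Cldn5, the claudin of the endothelial barrier, varied more between arrays of the same group than any other member, with a pooled SD of 0.82. Its log2 signal was 4.92, 5.89 and 7.27 on the KO cold arrays and 6.13, 6.38 and 5.82 on the WT cold arrays. Room-temperature values were 4.95, 5.55 and 6.34 in KO mice and 5.32, 3.98 and 5.59 in WT mice. The WT groups did not overlap and the KO groups did. The cold difference was 0.41 ± 0.55 in KO (limma adjusted p = 0.689) and 1.15 ± 0.55 in WT (limma adjusted p = 0.193), and neither passed. The highest value was that of KO cold replicate 3, the array with the high neutrophil list, whose part in this value was not tested. Over both genotypes the difference was 0.78 ± 0.39 (limma adjusted p = 0.177), and it was 1.06 (adjusted p = 0.0466) without KO cold replicate 1 and 0.47 (adjusted p = 0.358) without KO cold replicate 3. Without the same replicate 3 the difference in KO alone was -0.21 (adjusted p = 0.840).

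**Figure D1:**
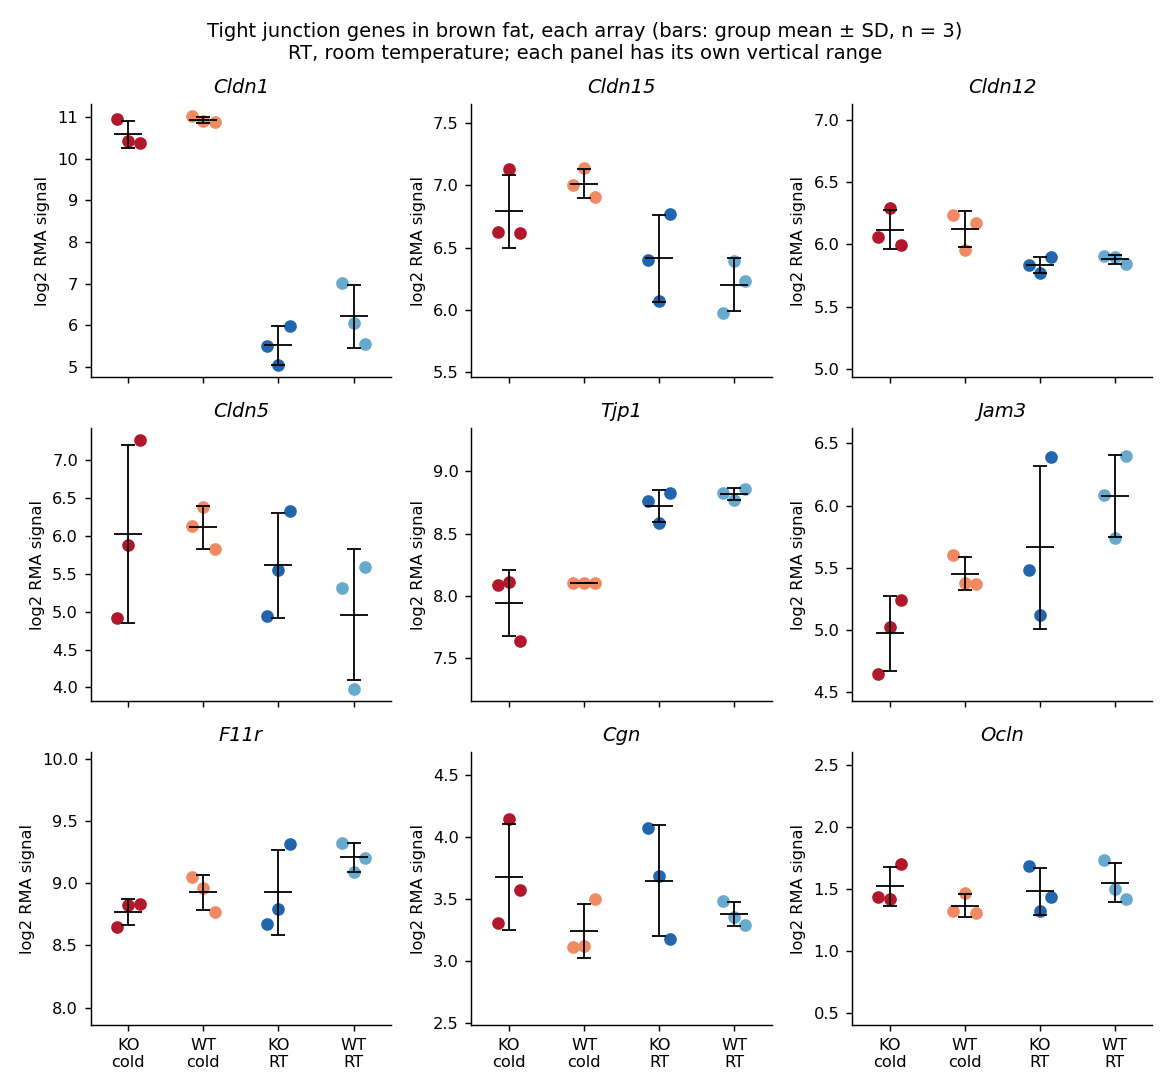
Log2 signal of the 9 tight junction genes (vertical axis, its own range in each panel) on each of the 12 arrays, by group (KO cold, WT cold, KO room temperature, WT room temperature), with the group mean ± SD. Cldn1 lies between 10.38 and 11.03 on the cold arrays and between 5.05 and 7.02 at room temperature, and Tjp1 is lower on every cold array.

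Among the scaffold and adhesion genes the cold differences were mostly below 0. Tjp1, the scaffold ZO-1 that ties claudins and junctional adhesion molecules to actin, had a log2 signal of 8.09, 8.11 and 7.64 on the KO cold arrays and 8.10, 8.10 and 8.10 on the WT cold arrays. Without cold the values were 8.76, 8.58 and 8.83 in KO mice and 8.83, 8.77 and 8.86 in WT mice. No cold array reached any room-temperature array. Tjp1 fell by 0.78 ± 0.14 on the log2 scale in KO (SE, n = 3 per group, limma adjusted p = 0.00198), which was 1.72-fold lower. In WT it fell by 0.72 ± 0.14 (limma adjusted p = 0.00372), which was 1.64-fold lower. With any 1 of the 12 arrays left out it stayed past the threshold in both genotypes (adjusted p of 0.0165 or less). The lowest array was KO cold replicate 3, and without it Tjp1 fell by 0.63 in KO (adjusted p = 0.00411).

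Jam3, an adhesion molecule of endothelial, muscle and nerve cells, had a log2 signal of 4.65, 5.03 and 5.24 on the KO cold arrays and 5.61, 5.38 and 5.37 on the WT cold arrays. At 22 °C the signal was 5.48, 5.12 and 6.39 in KO mice and 6.09, 5.74 and 6.40 in WT mice. The WT groups did not overlap, and in KO room-temperature replicate 2 lay below 1 cold array. The difference was -0.69 ± 0.28 in KO (limma adjusted p = 0.119) and -0.62 ± 0.28 in WT (limma adjusted p = 0.169), and neither passed. In KO it was -0.97 (adjusted p = 0.0383) without room-temperature replicate 2 and -0.33 (adjusted p = 0.404) without room-temperature replicate 3. In WT the adjusted p was 0.0435 in a fit to the arrays of that comparison alone. Over both genotypes Jam3 fell by 0.66 ± 0.20 (limma adjusted p = 0.0279), a call lost without WT room-temperature replicate 1 (adjusted p = 0.0534) or 3 (0.0695), WT cold replicate 2 (0.0599) or 3 (0.0608) or KO cold replicate 1 (0.0640). With the mean of the muscle list as a covariate the difference was -0.45 (adjusted p = 0.0665). The summed linear signal of the 21 muscle genes was 649 to 10672 on the KO cold arrays, 1347 to 8161 on the WT cold arrays, 303 to 13797 on the KO room-temperature arrays and 350 to 3017 on the WT room-temperature arrays, and 0 of the 21 passed in the cold comparisons, where their median difference was 0.35 in KO and 2.44 in WT.

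F11r, the adhesion molecule JAM-A of epithelia, endothelium, platelets and leukocytes, did not pass in any comparison. Its log2 signal was 8.65, 8.82 and 8.83 on the KO cold arrays and 9.05, 8.96 and 8.77 on the WT cold arrays. Room-temperature values were 8.67, 8.80 and 9.31 in KO mice and 9.33, 9.09 and 9.21 in WT mice. The WT groups did not overlap and the KO groups did. The difference was -0.16 ± 0.16 in KO (limma adjusted p = 0.595) and -0.28 ± 0.16 in WT (limma adjusted p = 0.297).

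Cgn and Ocln had group means under 4 on the log2 scale, Ocln below and Cgn somewhat above the array medians, so their differences are given without a fold. Cgn, which encodes cingulin, a plaque protein of epithelial junctions, lay between 3.31 and 4.14 on the KO cold arrays, 3.11 and 3.5 on the WT cold arrays, 3.18 and 4.07 on the KO room-temperature arrays and 3.29 and 3.48 on the WT room-temperature arrays. Ocln, the founding tight junction membrane protein, lay between 1.42 and 1.70 on the KO cold arrays, 1.31 and 1.47 on the WT cold arrays, 1.32 and 1.68 on the KO room-temperature arrays and 1.42 and 1.73 on the WT room-temperature arrays. The groups of both genes overlapped. The cold differences of Cgn were 0.03 ± 0.24 in KO and -0.13 ± 0.24 in WT, and those of Ocln 0.04 ± 0.14 in KO and -0.18 ± 0.14 in WT, with limma adjusted p-values of 0.443 or more.

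Counted over the set, 1 of the 9 genes was higher and 1 lower in the cold in KO at a limma adjusted p under 0.05, where 19.2% of all genes were called (8.34% higher and 10.8% lower). In WT 2 were higher and 1 lower, where 17.4% of all genes were called (9.39% higher and 7.98% lower). Over both genotypes 3 were higher and 2 lower, where 27.2% of all genes were called (12.9% higher and 14.3% lower). These counts include Cldn1, whose cold response was known beforehand. Of the 8 other genes, 0 were higher and 1 lower in KO, 1 higher and 1 lower in WT, and 2 higher and 2 lower over both genotypes. The cold and room-temperature arrays did not overlap for 3 of the 9 genes in KO, as for 31.6% of all genes, and for 7 in WT, as for 36.8% of all genes. Without Cldn1 this held for 2 of the 8 genes in KO and for 6 in WT. The median difference over both genotypes was -0.05 for the 9 genes and -0.01 for all genes tested.

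**Figure D2:**
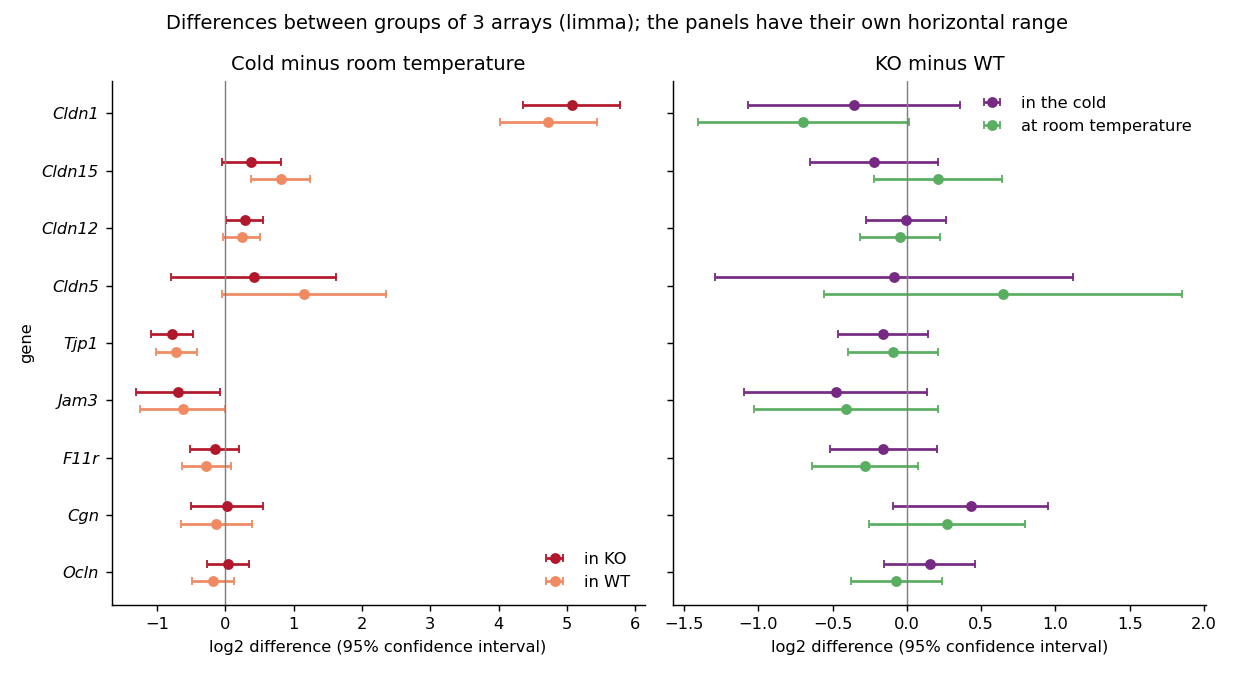
Log2 differences of the 9 genes (limma, points) with 95% confidence intervals (bars), for cold minus room temperature in KO and in WT on the left and for KO minus WT in the cold and at room temperature on the right. Cldn1 stands at 5.07 in KO and 4.73 in WT, the other cold differences lie between -0.78 and 1.15, and the intervals of KO minus WT all include 0.

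The second comparison asked whether loss of Zbtb7b, a zinc finger transcription factor, changed these genes. None of the 9 passed as different between KO and WT at either temperature. In the cold 0 passed in limma and 0 had an unadjusted p under 0.05, where 0.911% and 14.4% of all genes did. At room temperature 0 passed and 0 had an unadjusted p under 0.05, where 0.55% and 11.4% of all genes did. Cldn1 stood at -0.35 ± 0.33 in KO in the cold (SE, n = 3 per group, limma adjusted p = 0.681), with a 95% confidence interval of -1.07 to 0.36. At room temperature it stood at -0.70 ± 0.33 (limma adjusted p = 0.451), with an interval of -1.41 to 0.02, and at -0.29 without WT replicate 1 and -1.02 without WT replicate 3. Group means were 10.58 in KO and 10.94 in WT in the cold, and 5.51 in KO and 6.21 in WT at room temperature.

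For Jam3 the 3 KO arrays lay below the 3 WT arrays in the cold, as the arrays of 20.6% of all genes did not overlap there, and the difference was -0.48 ± 0.28 (limma adjusted p = 0.478). At room temperature its groups overlapped and the difference was -0.41 ± 0.28 (limma adjusted p = 0.646). The widest intervals were those of Cldn5, from -1.29 to 1.12 in the cold and from -0.55 to 1.85 at room temperature. The narrowest were those of Cldn12, from -0.27 to 0.26 in the cold and from -0.32 to 0.22 at room temperature. Over both temperatures 0 of the 9 passed, where 1.63% of all genes were called, and 2 had an unadjusted p under 0.05, as did 14.7% of all genes. These were Cldn1 at -0.53 ± 0.23 (limma adjusted p = 0.316) and Jam3 at -0.44 ± 0.20 (limma adjusted p = 0.329).

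The genotype by temperature interaction tests whether the cold difference itself differed between KO and WT. It passed for 0 of the 9 genes in limma and for 0.0271% of all genes, and 0 of the 9 had an unadjusted p under 0.05, as 10.5% of all genes did. For Cldn1 the interaction was 0.34 ± 0.46 (limma adjusted p = 0.826), with a 95% confidence interval of -0.67 to 1.35. For Cldn15, which passed in WT and not in KO, the interaction was -0.44 ± 0.28 (limma adjusted p = 0.608), with an interval of -1.04 to 0.17. For Tjp1 it was -0.06 ± 0.20 (limma adjusted p = 0.933).

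The genes whose signal moved most like that of Cldn1 were sought among 8176 genes, those of the 8475 with an average log2 signal of 5 or more that were left without predicted genes, small RNAs, pseudogenes and olfactory or vomeronasal receptors, after centring each gene on its mean over the 12 arrays. The measure was the root mean square difference from Cldn1 in log2 units, which is small where both shape and size of the movement match. It was 0.58 for Arntl, which encodes the core clock factor BMAL1, 0.65 for Lrrc52, an auxiliary subunit of potassium channels, and 0.71 for Hmox1, the heme oxygenase. Elovl3, an elongase of long fatty acids, followed at 0.85 and Hsph1, a chaperone of the HSP110 family, at 1.0. The measure was 2.51 for the median gene, and from 2.22 for Cldn15 to 2.86 for Tjp1 among the other members.

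The match to Cldn1 fixes that these genes were high in the cold, so their values are a description, and some reached an average of 5 only through their cold groups. Group means of Arntl were 8.01 in KO and 8.37 in WT in the cold, and 3.34 in KO and 3.61 in WT at room temperature. Those of Hmox1 were 9.60 in KO and 10.18 in WT in the cold, and 5.61 in KO and 5.24 in WT at room temperature. Those of Elovl3 were 9.21 in KO and 10.52 in WT in the cold, and 3.71 in KO and 5.72 in WT at room temperature. All 12 arrays enter this measure, the step between cold and room temperature included. Time of day at collection was not among the sample details used here, and its part in the values of Cldn1 and Arntl was not tested.

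**Figure D3:**
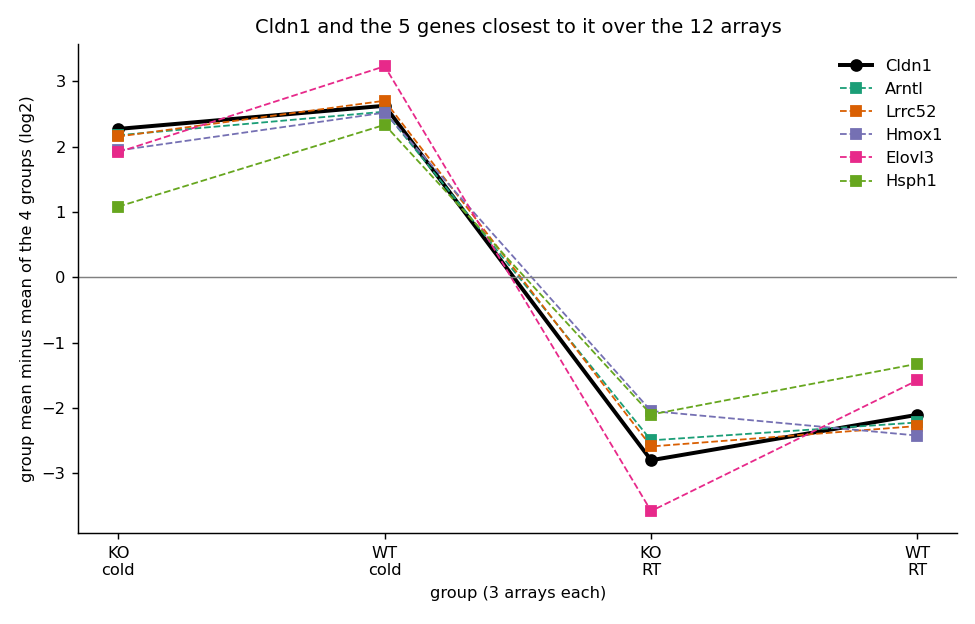
Group means (log2, 3 arrays each) of Cldn1 and of the 5 genes closest to it, each minus its mean over the 4 groups, for KO cold, WT cold, KO room temperature and WT room temperature. Lines join the groups of a gene only to guide the eye, and all 6 genes lie above 0 in the cold and below 0 at room temperature.

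Other genes of the junctions were grouped by their known roles into lists, chosen with earlier results of these data known. Their counts are descriptions and stand beside the all-gene shares of 19.2% called in KO, 17.4% in WT and 27.2% over both genotypes. Of 20 further claudins 19 were measured, and 0 of them averaged 5 or more on the log2 scale. In KO Cldn6 fell with cold (-0.47 ± 0.14, limma adjusted p = 0.0388), and over both genotypes Cldn23 rose (0.47 ± 0.14, limma adjusted p = 0.0228), both at a mean signal under the array medians (1.42 and 2.21). The other 18 did not pass over both genotypes, with a list median of -0.01.

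Of 12 other membrane proteins of tight junctions, 1 rose and 2 fell with cold over both genotypes, with a median of 0.09, where 27.2% of all genes were called. Jam2, which encodes the endothelial adhesion molecule JAM-B, fell by 0.77 ± 0.11 (limma adjusted p = 2.61e-04). Cxadr, the coxsackievirus and adenovirus receptor, fell by 0.90 ± 0.17 (limma adjusted p = 0.00130). Marveld2, which encodes tricellulin, rose by 0.42 ± 0.13 at a mean signal of 3.24 (limma adjusted p = 0.0309). The difference of Marveld2 was 0.08 ± 0.19 in KO (limma adjusted p = 0.827) and 0.76 ± 0.19 in WT (limma adjusted p = 0.0137), with an interaction of -0.68 ± 0.26 that did not pass (limma adjusted p = 0.398). Jam2 and Cxadr also passed as lower in KO alone (-0.69 and -0.93) and in WT alone (-0.84 and -0.86).

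Of 23 measured cytoplasmic proteins of tight junctions, 3 rose and 8 fell with cold over both genotypes, with a median of -0.16, where 27.2% of all genes were called. The largest fall was that of Cgnl1, which encodes paracingulin, the close relative of cingulin, by 1.25 ± 0.15 (limma adjusted p = 4.43e-05). It fell by 1.26 in KO and by 1.24 in WT. Amotl1 (-0.55) and Amotl2 (-0.86), members of the angiomotin family, and the polarity genes Pard6b (-0.80), Pard6g (-0.96) and Mpp5 (-0.46) also fell. So did Afdn, which encodes afadin (-0.32), and Rab13 (-0.50). Mean signals were low for Rab13 (3.15), Pard6b (3.44) and Pard6g (4.29). Tjap1, a junction-associated protein, rose by 1.10 ± 0.14 (limma adjusted p = 6.57e-05), Pard3 by 0.47 and the nucleic acid binding protein Ybx3, a partner of ZO-1, by 0.32. In KO alone 1 rose and 7 fell, where 19.2% of all genes were called, and in WT alone 4 rose and 2 fell, where 17.4% were. The genotype by temperature interaction passed for 0 of the 23, where 0.0271% of all genes passed. Its median over the list was -0.18, with 5 of the 23 above 0. These counts therefore show neither that the genotypes differed nor that they were alike. Tjap1 passed as higher in both, by 0.62 in KO and by 1.58 in WT. Of the genes that passed in 1 genotype alone, Tjp3 fell in KO (-0.50) at a mean signal under the array medians (2.12), and Mpdz rose in WT (0.65).

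Of 12 adherens junction genes, 4 rose and 1 fell with cold over both genotypes, with a median of 0.06, where 27.2% of all genes were called. Cdh2, which encodes N-cadherin, fell by 1.18 ± 0.13 (limma adjusted p = 3.62e-05). The catenins Ctnna1 (0.57) and Jup (0.58), the actin linker Vcl (0.62) and Nectin3 (0.41) rose. Gja1, which encodes the gap junction protein connexin 43, rose by 1.54 ± 0.09 (limma adjusted p = 4.63e-07), the 1 of 8 gap junction genes that passed over both genotypes, and Panx1 rose in WT (0.58) at a mean signal of 3.24. Of 7 desmosome genes, 1 rose, Pkp4, by 0.67 ± 0.11 (limma adjusted p = 5.47e-04). No gene of these lists passed between KO and WT at either temperature.

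Of 11 transcription factors known to act on junction genes, 3 rose and 2 fell with cold over both genotypes, with a median of 0.28, where 27.2% of all genes were called. Sox18, an endothelial factor that activates Cldn5 in endothelial cells, rose by 1.11 ± 0.15 (limma adjusted p = 1.40e-04), Klf4 by 1.18 ± 0.28 (limma adjusted p = 0.00609) and Foxo1, a repressor of Cldn5 in endothelial cells, by 0.48 ± 0.10 (limma adjusted p = 0.00280). Twist1 (-0.65) and Zeb1 (-0.32), repressors of epithelial junction genes, fell.

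**Figure D4:**
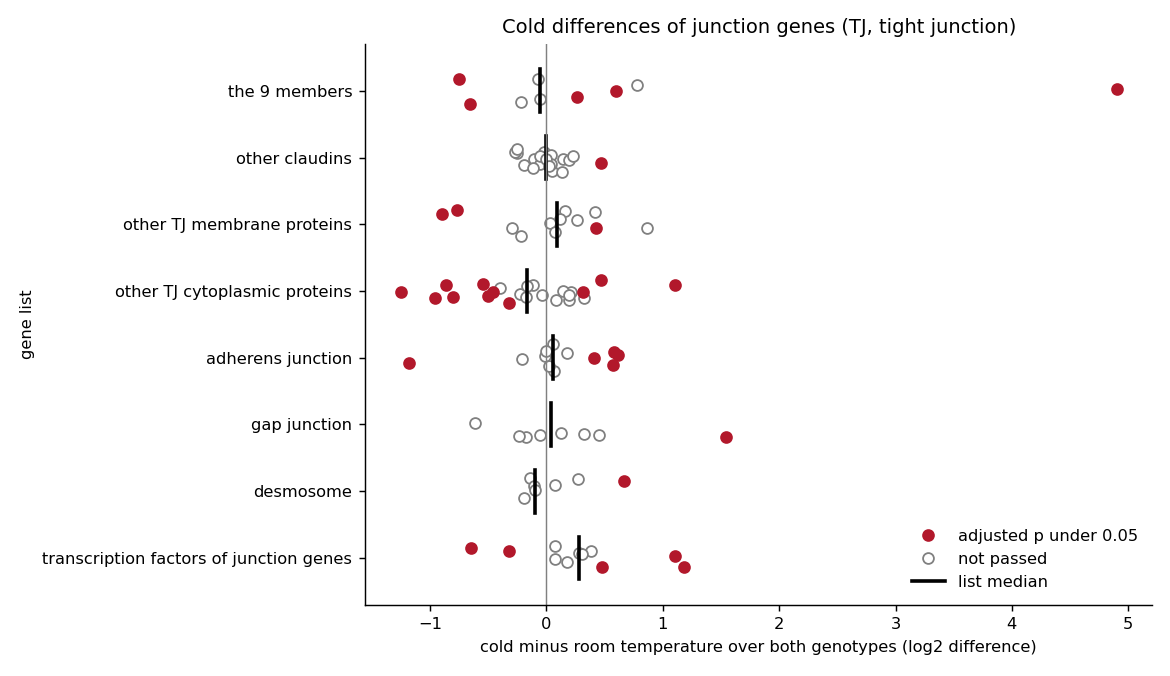
Cold minus room temperature over both genotypes (log2 difference, horizontal axis) for each gene of the 9 members and of 7 lists of junction genes, with filled points for genes at an adjusted p under 0.05, open points for the others and a bar at each list's median. Points are spread vertically within a list so that they can be told apart. Cldn1, at 4.90, stands far to the right of every other junction gene, of which the next highest is Gja1 at 1.54.

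The endothelial list had a nearly constant mean of 8.33 to 8.65 on the 12 arrays, while its members moved both ways with cold. Of 14 genes 5 rose and 4 fell over both genotypes, with a median of 0.01, where 27.2% of all genes were called (12.9% higher and 14.3% lower). Its summed linear signal was 7988 to 8160 on the KO cold arrays, 7755 to 8672 on the WT cold arrays, 6578 to 7743 on the KO room-temperature arrays and 7367 to 8026 on the WT room-temperature arrays. Of 8 mural and smooth muscle genes 1 rose and 4 fell (median -0.43), and of 5 lymphatic endothelial genes 3 rose and 0 fell (median 0.41). Of 8 Schwann cell and nerve sheath genes 0 rose and 1 fell (median -0.08). Of 11 macrophage genes 6 rose and 0 fell over both genotypes (median 0.54). In KO alone 4 rose and 1 fell (median 0.18), where 19.2% of all genes were called. In WT alone 6 rose and 0 fell (median 0.72), where 17.4% were. The summed linear signal of the 11 macrophage genes was 1661 to 2520 on the KO cold arrays and 1506 to 1902 on the WT cold arrays. It was 1664 to 2032 on the KO room-temperature arrays and 1024 to 1278 on the WT room-temperature arrays. The part of these shifts in the values of Cldn5, Tjp1, Jam3 and F11r was not tested.

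**Figure D5:**
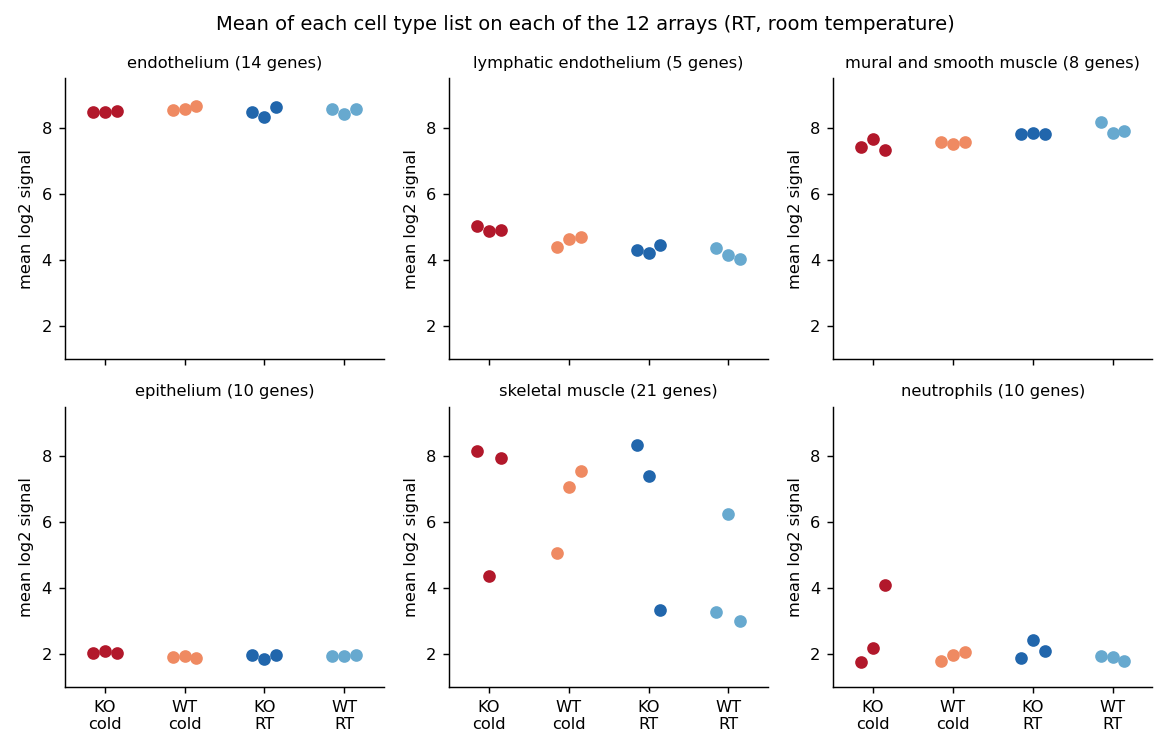
Mean log2 signal of 6 cell type lists (vertical axis) on each of the 12 arrays, by group (KO cold, WT cold, KO room temperature, WT room temperature). The endothelial mean stays between 8.33 and 8.65 and the epithelial mean between 1.86 and 2.11, the muscle mean differs within groups, and the neutrophil mean is high on KO cold replicate 3 at 4.09.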

How the data were processed

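The authors deposited 1 log2 signal per probe set and array. Per the submitters' processing notes oligo, RMA and limma were used, with no versions stated. RMA subtracts background, equalises the distributions of arrays and combines probes into sets, so values are relative. Raw scans were not used here. Of 41345 probe sets, 23521 carried 1 gene symbol in the platform annotation, 1814 several and 16010 none. Keeping the brightest of each gene gave 22180 genes, and dim genes stayed in.

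The model had a mean for each group over all 12 arrays (limma 3.58.1, R 4.3.3, eBayes). Tests were two-sided with Benjamini-Hochberg adjustment over all genes, and an adjusted p under 0.05 passed. The fit was also run on simulated arrays, with noise drawn separately for each gene and array. Deviations that genes share on an array, such as those of the muscle list, were not part of that simulation. Groups came from the titles, since the description field names liver and another knockout. Other settings are given in the closing section.

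The members and gene lists were chosen with earlier results of these data known. Named were the 9 members, Zbtb7b, Ucp1 and Alb, list genes that passed (the 10 with the smallest p where more did) and the 5 genes closest to Cldn1. Rab13 in the cold comparison over both genotypes falls outside that rule, as do the marker genes Epcam, Krt8, Krt14, Cyp2e1 and Hpx. These were chosen after their values were seen.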

Additional observations from a re-analysis of the deposited data

How the results depend on the processing

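For the 9 genes 24 other settings were run, of which the fit on only the arrays of a comparison applies to the comparisons of 2 groups, and the filter on genes averaging under 5 leaves out Ocln and Cgn. In each comparison of KO with WT and in the interaction, 0 of the genes tested passed under every setting that was run. With any 1 of the 12 arrays left out, 2 to 3 genes passed in KO, 2 to 3 in WT and 3 to 5 over both genotypes. Over both genotypes 3 passed, in place of 5, without WT room-temperature replicate 1, without WT room-temperature replicate 3 or without WT cold replicate 3, where Cldn12 and Jam3 no longer passed. When a change of at least 1.5-fold was tested, 1 gene passed in KO, 1 in WT and 1 over both genotypes, and 0 of the 8 genes other than Cldn1 did, since this test asks for a larger change. The cold difference of Cldn1 lay between 4.84 and 5.31 in KO and between 4.40 and 5.14 in WT over all settings, and that of Tjp1 between -0.90 and -0.62 in KO and between -0.80 and -0.64 in WT. No call changed its direction. The replicate numbers of the titles were not taken as pairs, since arrays of different groups with the same number were no more alike than others. Deviations from the group means correlated at -0.54 to 0.45 over the 18 pairs with the same number (median -0.11). Over the 36 pairs with different numbers they correlated at -0.56 to 0.63 (median 0.07). With the replicate block 2 genes passed in KO, 3 in WT and 4 over both genotypes, where Cldn12 no longer passed (adjusted p = 0.0699). The causes of these shifts were not tested. Ocln lies near the bottom of the signal scale, which limits what these arrays can show for it.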
